A study of Rattus norvegicus with 6 samples.

Results

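The genes described here are 10 rat immediate-early genes of the EGR, IER and KLF families, namely Egr1, Egr2, Egr3, Ier2, Ier3, Ier5, Klf2, Klf4, Klf6 and Klf10. They were chosen by symbol with earlier results of these data known, and each symbol matched 1 of the 32623 genes listed. RNA was sequenced from cultured nucleus pulposus cells, which come from the soft centre of the intervertebral disc. They were isolated from lumbar discs of Sprague-Dawley rats (males, 4 weeks of age) and used at passages 3 to 5. Both groups were exposed to lentivirus for 72 hours. In shBmal1 (3 libraries) the virus carried a short hairpin RNA directed at the clock gene Bmal1, and in shNC (3 libraries) a control hairpin. The sources used here give neither the number nor the sequence of the hairpins, and no label ties a library to its own culture or animal. P-values therefore describe the spread between these libraries only, which may be technical.

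Immediate-early genes are transcribed within minutes of a stimulus, from factors already present in the cell, and their mRNAs are usually short-lived. Growth factors and stress act on many of them through the ERK kinases, which phosphorylate ternary complex factors such as ELK1 bound together with serum response factor (SRF) at the CArG box, and through CREB at the cAMP response element. EGR proteins and Krüppel-like factors (KLF) bind GC-rich DNA with 3 zinc fingers, the latter at GC and CACCC boxes, whereas IER proteins have no zinc fingers and act as regulators of transcription, phosphatases and survival. In tendon cells EGR1 is known as a mechanically responsive factor tied to collagen production. KLF4 and KLF2 are known for restraining inflammation in vascular cells.

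Sequences upstream of the start sites are shown first because 4 of the 10 genes carry, in the 250 bases before the start, a letter match to an element that the pathways above, or BMAL1 itself, bind. RefSeq start sites (build GRCr8) were matched by symbol for 6 of the 10 genes, Egr1, Egr2, Ier2, Ier5, Klf4 and Klf6. The motifs searched on both strands were the CArG box, the cAMP response element TGACGTCA, its core CGTCA (which the full element contains), the E-box CACGTG bound by BMAL1 and CLOCK, and the EGR site GCGNGGGCG. In the stretches below, capitals mark every match and positions count back from the base before the start, which is -1. The Egr1 stretch runs from -140 to -60 (chr18:26736938-26737018, forward strand), the Egr2 stretch from -90 to -50 (chr20:21054491-21054531, reverse strand), the Ier2 stretch from -80 to -40 (chr19:40399293-40399333, forward strand) and the Klf6 stretch from -210 to -45 (chr17:69458523-69458688, reverse strand).
Egr1: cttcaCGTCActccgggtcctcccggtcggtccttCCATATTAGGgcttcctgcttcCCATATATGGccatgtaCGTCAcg
Egr2: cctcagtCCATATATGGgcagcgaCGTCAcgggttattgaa
Ier2: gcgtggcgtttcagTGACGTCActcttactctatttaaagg
Klf6: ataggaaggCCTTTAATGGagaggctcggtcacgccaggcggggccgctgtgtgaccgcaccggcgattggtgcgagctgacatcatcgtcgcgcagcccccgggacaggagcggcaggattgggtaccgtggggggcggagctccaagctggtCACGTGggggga

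The Egr1 and Egr2 stretches hold the same arrangement. In both, a CArG box lies at -83 to -74 and a CGTCA core at -66 to -62, and Egr1 has a further CArG box at -105 to -96 and a further core at -135 to -131. Klf6 has a CArG box at -201 to -192 and the only E-box among the 6 windows, at -56 to -51. Ier2 has the full cAMP response element, at -66 to -59. No letter match to any of these motifs lay in the windows of Ier5 and Klf4, and no EGR site lay in any of the 6. Among all 33469 RefSeq windows of this length, 1.50% held a CArG box, 1.59% the full cAMP response element, 18.2% its core, 5.59% the E-box and 4.29% the EGR site. A match describes letters in a window and is not evidence of binding in these cells.

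Of the 10 genes, 8 were higher and 2 were lower in shBmal1, and all 10 passed the test (edgeR's quasi-likelihood test, Benjamini-Hochberg adjusted p under 0.05 over all tested genes). This has to be read against a transcriptome in which 71.3% of the 14342 tested genes passed, 36.0% higher and 35.3% lower. In CPM the groups did not overlap for any of the 10, as for 77.3% of tested genes. At least 2-fold rises were called for 7 of the 10 genes, against 25.4% of tested genes, and at least 4-fold rises for 5, against 14.3%. The median log2 fold change of the 10 genes was 1.96, and that of all tested genes was -0.01. The 10 genes were chosen with earlier results of these data known, so these comparisons are a description only. Egr3 entered the test through the shNC libraries alone, which largely fixed its direction. The remaining 9 genes had at least 73 counts in every library.

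The 2 groups also differed throughout in depth and composition. The shNC libraries held 44043803 to 49783710 counts and the shBmal1 libraries 8773762 to 11679587, and mitochondrial rRNA took 0.0330 to 0.0602% of counts in shNC and 0.722 to 1.31% in shBmal1. Genes with a count numbered 15188 to 15518 in the shNC libraries and 16070 to 16518 in the shallower shBmal1 libraries. The part of these differences in the results was not tested, beyond thinning the shNC libraries to the mean depth of shBmal1. After thinning, all 10 calls and directions were the same. The hairpin target, listed as Arntl, had 27.4, 29.7 and 31.7 CPM in shNC and 2.16, 4.24 and 2.07 CPM in shBmal1 (CPM are counts scaled to library size, after TMM scaling between libraries). Its log2 fold change was -3.37 ± 0.26 (SE), and the exact permutation test (two-sided) gave p = 0.1, which is the minimum for 3 libraries against 3. The 10 nucleus pulposus and chondrocyte markers found summed to 1341 to 1405 CPM in shNC and 231 to 275 CPM in shBmal1. Acan (648 and 32.8 CPM) and Pax1 (527 and 84.9 CPM) made up most of the sum in shNC. Of 9 tested markers 4 fell, 1 rose and 4 did not pass, so 55.6% passed against 71.3% of all tested genes. Tbxt, the defining notochord factor, had no count in any library. In bulk RNA, fewer cells of a type and less RNA per cell cannot be told apart.

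**Figure D1:**
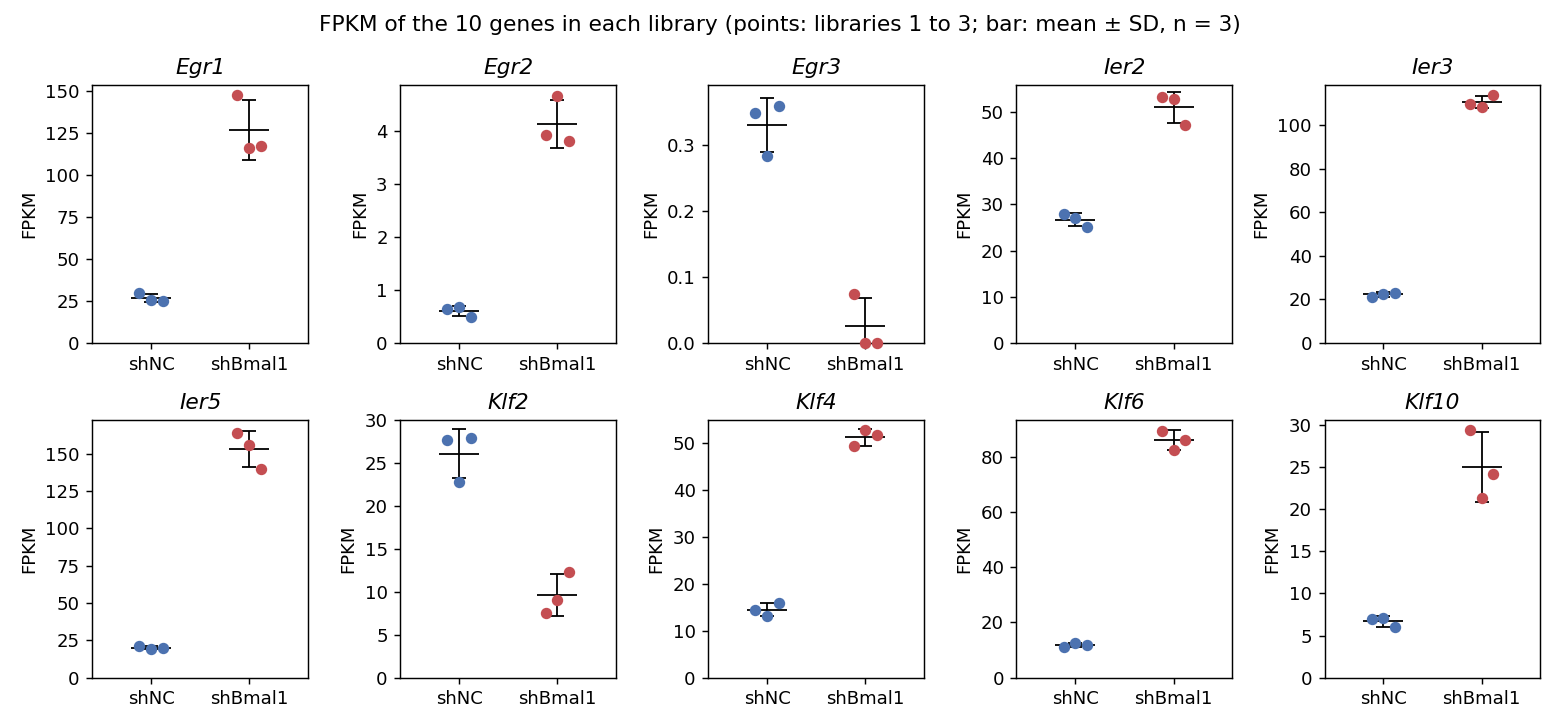
FPKM of each gene (vertical axes, linear from 0, a separate scale for each gene) in the 3 shNC and 3 shBmal1 libraries. Points are libraries and bars are the mean with SD. In every panel the groups are apart, with Egr3 and Klf2 lower in shBmal1 and the other 8 genes higher.

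The EGR genes moved in opposite directions. Egr1 (ENSRNOG00000019422, chromosome 18, 27657628 to 27661429, forward strand, in the authors' annotation, for which no build is stated) encodes the founding member, a zinc finger activator induced by serum and mechanical load. It had 102, 86.4 and 84.7 CPM in shNC and 467, 366 and 365 CPM in shBmal1. Every shBmal1 library exceeded every shNC library, and shBmal1 library 1 was the highest. The rise was 4.39-fold, with a log2 fold change of 2.13 ± 0.12 (SE) and an adjusted p of 1.94e-06 (edgeR).

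Egr2 (ENSRNOG00000000640, chromosome 20, 22454463 to 22459025, reverse strand), known for its role in Schwann cell myelination, was scarce in control cells. Its counts were 103, 113 and 73 in shNC and 120, 187 and 149 in shBmal1, which corresponds to 2.31, 2.40 and 1.73 CPM against 12.9, 15.3 and 12.3 CPM. Raw counts of similar size thus stood for a level several times higher in the shallower shBmal1 libraries. The log2 fold change was 2.65 ± 0.23, with an adjusted p of 2.02e-05 (edgeR).

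Egr3 (ENSRNOG00000017828, chromosome 15, 51756736 to 51760722, forward strand) is known in muscle spindles and T cells. It had 48, 41 and 45 counts in shNC and 2, 0 and 0 in shBmal1. The pooled level in shBmal1 was 5.94% of that in shNC, with a 95% interval of 0.712 to 21.9% that covers counting error only. The fitted log2 fold change was -3.93 ± 1.03 with an adjusted p of 0.00905 (edgeR), and leaving out shBmal1 library 1, the only one with counts, moved the fitted value to -8.00. Without shNC library 1 or 3, Egr3 no longer met the count filter.

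All 3 IER genes rose, by different amounts. Ier5 (ENSRNOG00000059406, chromosome 13, 72742210 to 72744303, reverse strand), whose protein binds the phosphatase PP2A and heat shock factor HSF1, had 48.6, 43.2 and 45.1 CPM in shNC and 347, 330 and 292 CPM in shBmal1. This was the largest rise of the 10 genes, 7.08-fold, with a log2 fold change of 2.82 ± 0.09 and an adjusted p of 1.15e-07 (edgeR). Ier3 (ENSRNOG00000000827, chromosome 20, 3438798 to 3440002, reverse strand), also called IEX-1, encodes an NF-kB-inducible regulator of ERK signalling and apoptosis. Its levels were 29.5, 31.5 and 31.9 CPM in shNC and 142, 140 and 145 CPM in shBmal1, the tightest shBmal1 spread of the genes other than Egr3 (coefficient of variation 1.71%). The log2 fold change was 2.20 ± 0.07 (adjusted p = 1.05e-07, edgeR).

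Ier2 (ENSRNOG00000054344, chromosome 19, 25774143 to 25775659, reverse strand), a nuclear regulator of cell motility, is listed with the biotype pseudogene in the deposited annotation, while RefSeq provided a start site for the symbol. The strand also differs, reverse in the deposited annotation and forward in RefSeq, and the start site was matched by symbol only. Ier2 had 45.2, 43.2 and 39.9 CPM in shNC and 79.3, 78.6 and 69.2 CPM in shBmal1. The groups did not overlap, but the rise was the smallest of the 8, with 1.77-fold and a log2 fold change of 0.82 ± 0.09 (adjusted p = 7.12e-05, edgeR). With FPKM rescaled to TPM its log2 fold change was 0.44, still called (limma).

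Among the KLF genes, Klf6, Klf4 and Klf10 rose and Klf2 fell. Klf6 (ENSRNOG00000016885, chromosome 17, 67887939 to 67945037, reverse strand), an injury-induced activator and growth suppressor, had 35.4, 39.4 and 36.1 CPM in shNC and 258, 237 and 244 CPM in shBmal1. The increase of 6.67-fold (log2 fold change 2.74 ± 0.07) had the smallest adjusted p of the 10 genes, 6.09e-08 (edgeR). Klf4 (ENSRNOG00000016299, chromosome 5, 72283313 to 72287669, reverse strand), a pluripotency factor that also halts the cell cycle, had 37.4, 33.8 and 40.4 CPM in shNC and 118, 126 and 121 CPM in shBmal1. Its groups were wide apart relative to their spread, with a log2 fold change of 1.71 ± 0.08 (adjusted p = 9.49e-07, edgeR).

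Klf10 (ENSRNOG00000006118, chromosome 7, 77156006 to 77162148, reverse strand) encodes TIEG1, a repressor induced by TGF-beta and known as a clock-controlled gene in liver. It had 23.0, 23.1 and 19.3 CPM in shNC and 89.3, 64.7 and 72.3 CPM in shBmal1, with shBmal1 library 1 highest. The log2 fold change was 1.79 ± 0.14 (adjusted p = 1.06e-05, edgeR). Klf2 (ENSRNOG00000014205, chromosome 16, 19223087 to 19225037, reverse strand), the shear-stress-induced factor of endothelium, had 32.1, 26.2 and 31.7 CPM in shNC and 8.08, 9.63 and 13.0 CPM in shBmal1. It fell 2.91-fold, with a log2 fold change of -1.54 ± 0.19 and an adjusted p of 1.50e-04 (edgeR), and its shBmal1 libraries had a coefficient of variation of 24.6%, the highest of the 10 genes apart from Egr3, for which it was not computed.

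**Figure D2:**
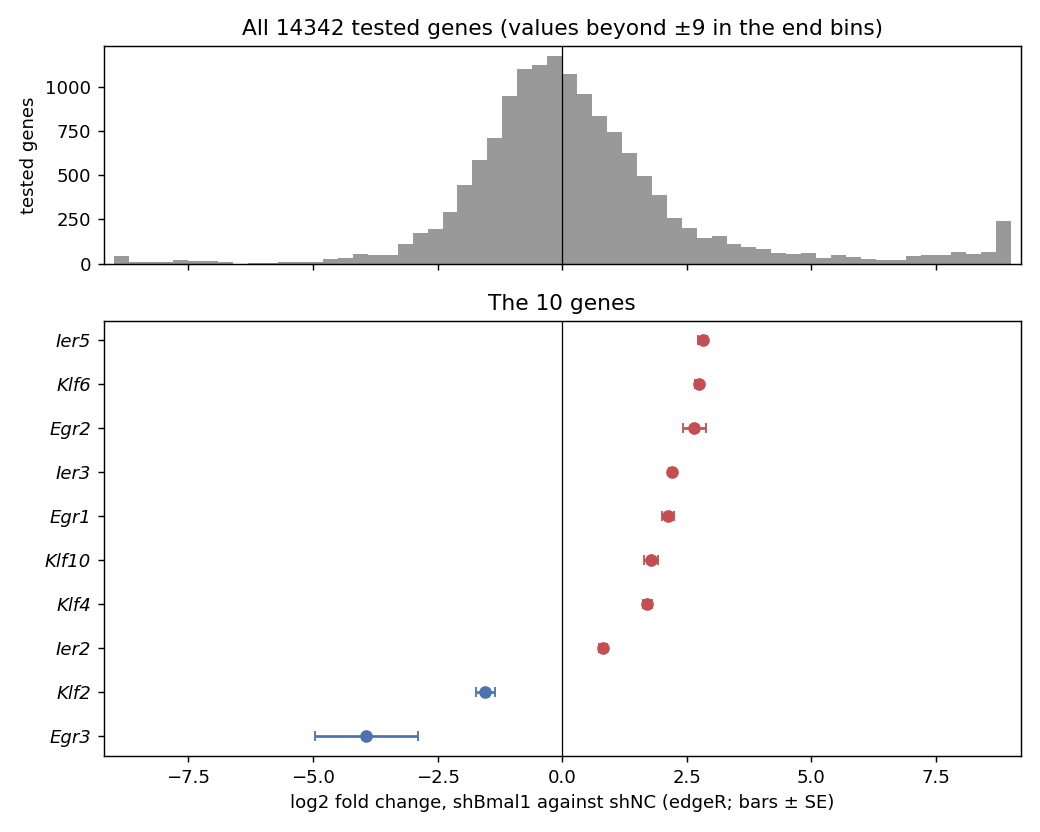
Log2 fold change of shBmal1 against shNC for the 10 genes (lower panel, bars ± SE) below a histogram of the same value over all 14342 tested genes (upper panel, number of genes). Of the genes that rose, Ier2 lies nearest 0 at 0.82 and Ier5 farthest at 2.82, and the widest error bar belongs to Egr3.

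Many other genes rose by as much or more. Among the log2 fold changes of all tested genes, Ier5 lay at percentile 89.9, Klf6 at 89.5, Egr2 at 89.2 and Ier2 at 68.9. Of the genes that fell, Klf2 lay at percentile 14.5 and Egr3 at 1.91. No annotated gene in the deposited table overlaps any of the 10 on either strand, so their counts are not shared with a neighbour by position.

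Levels of different genes were compared per length, as the authors' FPKM (fragments scaled by transcript length and depth). In shNC, Egr1 (26.7 ± 2.50 FPKM, SD, n = 3), Ier2 (26.7 ± 1.38 FPKM) and Klf2 (26.1 ± 2.86 FPKM) stood together at the top with overlapping ranges. Ier3 (22.2 ± 1.14 FPKM) overlapped Klf2 above it and Ier5 (20.0 ± 1.05 FPKM) below it, and the order then went down through Klf4 (14.5 FPKM), Klf6 (11.9 FPKM), Klf10 (6.69 FPKM), Egr2 (0.609 FPKM) and Egr3 (0.331 FPKM) without overlap. In control cells 8 of the genes thus lay between 6.69 and 26.7 FPKM on average, and Egr2 and Egr3 were each below 1 FPKM.

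In shBmal1 the order was different, and 8 of the 10 genes held another rank. Ier5 (153 ± 12.2 FPKM) and Egr1 (127 ± 17.8 FPKM) came first with overlapping ranges, followed by Ier3 (111 ± 2.84 FPKM) and Klf6 (86.0 ± 3.47 FPKM). Klf4 and Ier2 shared a level (51.1 ± 1.77 and 51.1 ± 3.38 FPKM), above Klf10 (25.0 FPKM), Klf2 (9.60 FPKM), Egr2 (4.14 FPKM) and Egr3, which was at 0.0750 FPKM in 1 library and had no count in the other two. Klf2, among the highest of the 10 in shNC, was below all of them except Egr2 and Egr3 in shBmal1.

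Shares within a family do not depend on how libraries are scaled to each other. Klf2 made up 45.9, 40.9 and 45.3% of the summed FPKM of Klf2, Klf4, Klf6 and Klf10 in shNC and 4.28, 5.44 and 7.06% in shBmal1. Klf6 went the other way, from 18.7, 22.8 and 19.1% to 50.9, 49.8 and 49.4%. Klf4 (24.4 ± 1.20% and 29.8 ± 1.91%, SD, n = 3) and Klf10 (11.3 ± 1.52% and 14.5 ± 2.01%) differed less. The main KLF transcript of the 4 was therefore Klf2 in every shNC library and Klf6 in every shBmal1 library. Over all 17 KLF genes listed, the share of Klf6 was 9.45 ± 0.92% in shNC and 40.5 ± 0.50% in shBmal1.

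Within the IER genes, Ier5 went from 29.0 ± 1.26% to 48.6 ± 1.89% of the summed FPKM and Ier2 from 38.7 ± 1.61% to 16.2 ± 0.50%, while Ier3 took 32.2 ± 2.04% and 35.2 ± 2.31%. Egr1 was 96.6 ± 0.22% of the EGR sum in shNC and 96.8 ± 0.62% in shBmal1, so that nearly all EGR transcripts were Egr1 in both groups.

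**Figure D3:**
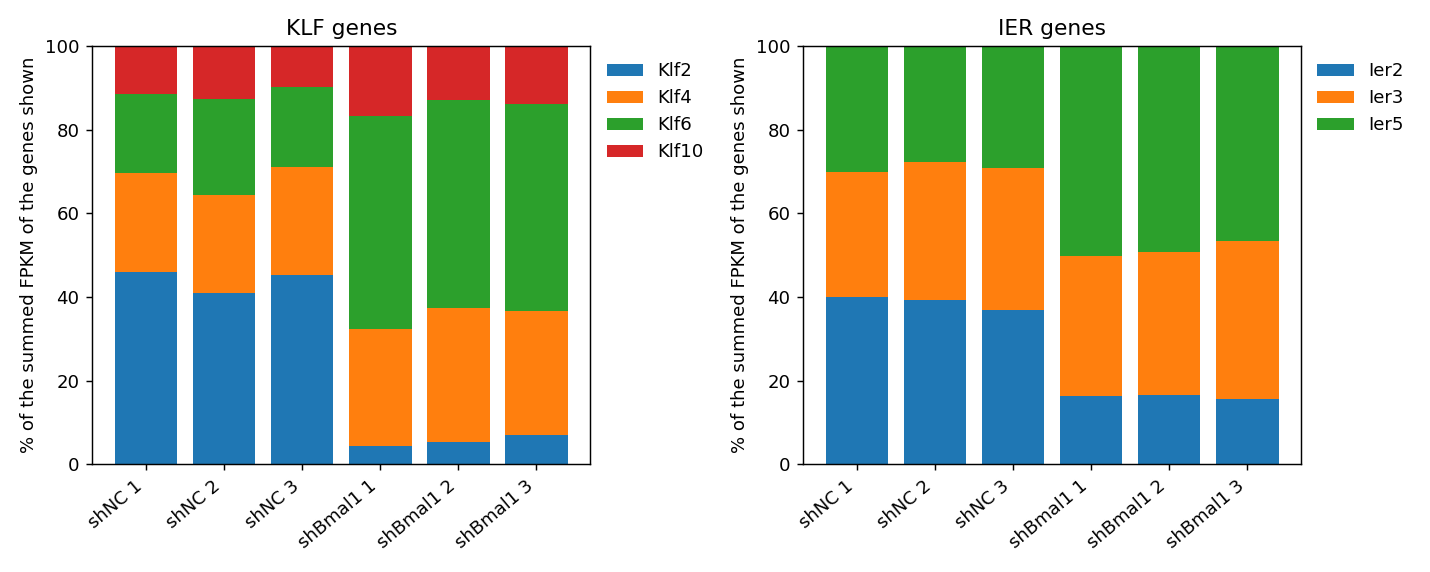
Percent of the summed FPKM of the 4 KLF genes (left) and the 3 IER genes (right) taken by each gene, 1 bar per library. Klf2 is at 40.9 to 45.9% in shNC and at 4.28 to 7.06% in shBmal1, and Klf6 and Ier5 take the largest part in the shBmal1 bars.

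For the 9 genes at 1 FPKM or more in at least 1 group, the log2 ratio of FPKM within a library was compared for all 36 pairs. The groups did not overlap for 29 pairs, and 16 of these ratios differed at least 2-fold. Over all 68532778 pairs of the 11708 tested genes that reached this level and had a count in every library, the groups did not overlap for 77.2%, and for 60.1% they also differed at least 2-fold. The count of 29 of 36 lies near that background, and 16 of 36 lies below the 60.1%. Each of those 29 gave p = 0.1 in an exact two-sided permutation test (adjusted over the 36 pairs, 0.124), the smallest value the design allows. The largest shifts all involved Klf2. Ier5 over Klf2 went from -0.38 ± 0.11 to 4.02 ± 0.48 on the log2 scale, and Klf2 over Klf6 from 1.13 ± 0.25 to -3.19 ± 0.38. The other 7 pairs had overlapping groups. Among them, Egr1 over Ier3 was 0.26 ± 0.21 and 0.19 ± 0.21, Ier5 over Klf6 was 0.75 ± 0.16 and 0.83 ± 0.12, and Klf4 over Klf10 was 1.11 ± 0.27 and 1.04 ± 0.28.

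The other genes of the same families mostly moved the opposite way to the 8 genes that rose. Both sets were chosen with earlier results of these data known, so the contrast is a description only. Of these other family genes 15 were listed and 11 tested, of which 2 rose and 7 fell. Together 81.8% passed, against 71.3% of all tested genes (36.0% higher and 35.3% lower). Their median log2 fold change was -0.80 against -0.01 for all tested genes. Klf15, a glucocorticoid-induced metabolic regulator, fell from 17.5 ± 1.88 to 2.87 ± 0.86 CPM (log2 fold change -2.62), Klf3, a repressor, from 49.0 ± 1.41 to 18.7 ± 1.70 CPM (-1.38), and Klf16 from 45.9 ± 4.46 to 21.0 ± 1.43 CPM (-1.13). Klf12 (-1.54), Klf13 (-1.38), Klf5 (-0.80) and Klf7 (-0.58) also fell, Klf7 losing its call without shNC library 1 or 3 (adjusted p = 0.0624 and 0.0614, edgeR).

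The family members that rose were Klf11, known as TIEG2 and the closest relative of Klf10, and Klf8. Klf11 went from 9.84 ± 0.35 to 20.9 ± 1.17 CPM (log2 fold change 1.08, adjusted p = 1.12e-04, edgeR). Klf8 went from 1.48 ± 0.30 to 4.33 ± 2.06 CPM (1.54), and its call was lost with a replicate block (adjusted p = 0.0715) and without shNC library 1 or 3 or shBmal1 library 1 or 3 (0.0633, 0.0542, 0.0511 and 0.0608, edgeR). With TPM it was also lost (adjusted p = 0.0817, limma). Ier5l, a relative of Ier5, stood at 54.1 ± 3.81 and 53.1 ± 14.4 CPM and Klf9 at 26.8 ± 2.00 and 23.1 ± 3.42 CPM, and neither passed. Klf9 passed as lower with TPM (-0.56, adjusted p = 0.00389, limma) and without shBmal1 library 1 (-0.36, adjusted p = 0.0264, edgeR).

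Transcripts of the upstream kinases and factors were mostly lower. Among 17 tested genes, 11 fell and 2 rose while 4 did not pass, with a median log2 fold change of -0.78. The share passing, 76.5%, lies near the 71.3% of all tested genes (36.0% higher and 35.3% lower). Mef2c and Mef2d, MADS-box activators of immediate-early genes, fell by 2.08 and 1.18 on the log2 scale. Mapk3, which encodes ERK1, fell from 152 ± 0.97 to 79.0 ± 0.43 CPM, and Mrtfa, the actin-regulated coactivator of SRF, from 122 ± 6.57 to 33.4 ± 6.07 CPM. Mef2a (0.82) and Map2k1, the ERK kinase gene (0.31), rose, but Map2k1 was at -0.07 with TPM and was not called there. Named after their values were seen, Srf fell from 81.0 ± 3.95 to 47.3 ± 7.26 CPM, and the ternary complex factor genes Elk1 (-0.48), Elk3 (-0.43) and Elk4 (-1.36) fell too. These are mRNA levels, and the activity of the proteins was not measured.

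Immediate-early genes of other families mostly rose as well. This list was also chosen with earlier results of these data known, so its rise is not independent support. Among 29 tested there were 23 increases, 3 decreases and 3 that did not pass, with a median log2 fold change of 1.68. Over all tested genes, 36.0% were called higher and 35.3% lower. With TPM, 18 were called higher and 4 lower. Plk2, which encodes a stress-induced polo-like kinase, rose from 40.9 ± 2.55 to 2172 ± 318 CPM (log2 fold change 5.73), Atf3, a stress-induced bZIP gene, from 1.89 ± 0.18 to 81.8 ± 1.68 CPM (5.43), Jun from 54.9 ± 1.07 to 1128 ± 112 CPM (4.36) and Maff from 33.2 ± 1.96 to 528 ± 43.2 CPM (3.99). Each of these adjusted p-values was between 3.68e-08 and 4.32e-08 (edgeR).

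The members that fell were Nr4a1, an orphan nuclear receptor gene (-2.55), Ccn1, a matricellular gene driven by SRF and YAP (-1.78), and Rhob, a GTPase gene (-1.44). Dusp1 (-0.13), which encodes a MAP kinase phosphatase, Trib1 (0.23) and Gem (1.01, adjusted p = 0.0529, edgeR) did not pass. Gem passed with 5 of the alternatives, among them DESeq2 (adjusted p = 0.0223), and Dusp1 passed as lower with TPM (adjusted p = 9.09e-04, limma) and without shBmal1 library 1 (adjusted p = 0.0476, edgeR). Of 21 genes of this list with a RefSeq window, 1 (Zfp36) held a CArG box in the 250 bases before the start and 4 held the full cAMP response element.

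Corepressors that bind EGR or KLF proteins split 2 higher and 6 lower of 8 tested, with a median of -0.90. All 8 thus passed, against 71.3% of all tested genes (36.0% higher and 35.3% lower). Nab1, which binds EGR proteins and represses them, fell from 50.6 ± 1.55 to 25.5 ± 0.36 CPM (log2 fold change -0.99), and Ctbp1, the KLF3 partner, from 151 ± 2.43 to 65.9 ± 5.04 CPM (-1.20). Sin3b (1.48) and Hdac2 (1.14) rose. Nab2, which is itself an EGR1 target and was named after its value was seen, fell from 110 ± 12.4 to 60.0 ± 5.13 CPM (-0.88) while Egr1 rose. Nab2 overlaps Stat6 on the opposite strand, and no source used here says whether strand was used in counting.

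Genes known as EGR or KLF targets in other cells moved both ways, with 7 higher, 3 lower and 3 not passing of 13 tested (median 0.38). The share passing, 76.9%, lies near the 71.3% of all tested genes (36.0% higher and 35.3% lower). Nos3, which encodes endothelial nitric oxide synthase and is a KLF2 target in endothelium, rose from 0.230 ± 0.06 to 235 ± 37.0 CPM (log2 fold change 9.96, adjusted p = 3.68e-08, edgeR). Thbd, which encodes thrombomodulin and is another KLF2 target, fell from 68.1 ± 7.21 to 21.6 ± 0.93 CPM (-1.66). Nos3 overlaps Atg9b on the opposite strand, and Atg9b had 0, 4 and 0 counts in shNC and 309, 301 and 268 in shBmal1. Cdkn1a, the p21 gene activated by KLF4 and KLF6, rose from 263 ± 8.85 to 1726 ± 115 CPM (2.71). Tgfb1 (-0.50) and F3, the tissue factor gene (-0.53), both EGR1 targets, fell. With TPM, the count was 4 higher and 4 lower.

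Factors that bind AU-rich elements, or act in the decay of mRNAs carrying them, were split. Of 10 tested, 5 were higher, 4 were lower and 1 did not pass (median 0.38). The 90% that passed compare with 71.3% of all tested genes (36.0% higher and 35.3% lower). Hnrnpd, which encodes AUF1, rose from 78.9 ± 1.71 to 252 ± 11.9 CPM, and Zfp36, which encodes tristetraprolin (0.94), rose as well. The deadenylase complex genes Cnot7 (1.11), Cnot1 (0.59) and Pan3 (0.52) also rose. Zfp36l1 (-0.99), Tia1 (-2.25), Khsrp (-0.64) and Zfp36l2 (-0.46) fell. Pan3 lost its call with TPM (adjusted p = 0.535, limma) and without shNC library 2 or shBmal1 library 2 or 3 (0.0611, 0.0758 and 0.0578, edgeR). Zfp36l2 lost its call with a gene length offset (0.0528) and without shNC library 2 or 3 or shBmal1 library 1 or 3 (0.0538, 0.0583, 0.0519 and 0.0686, edgeR).

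**Figure D4:**
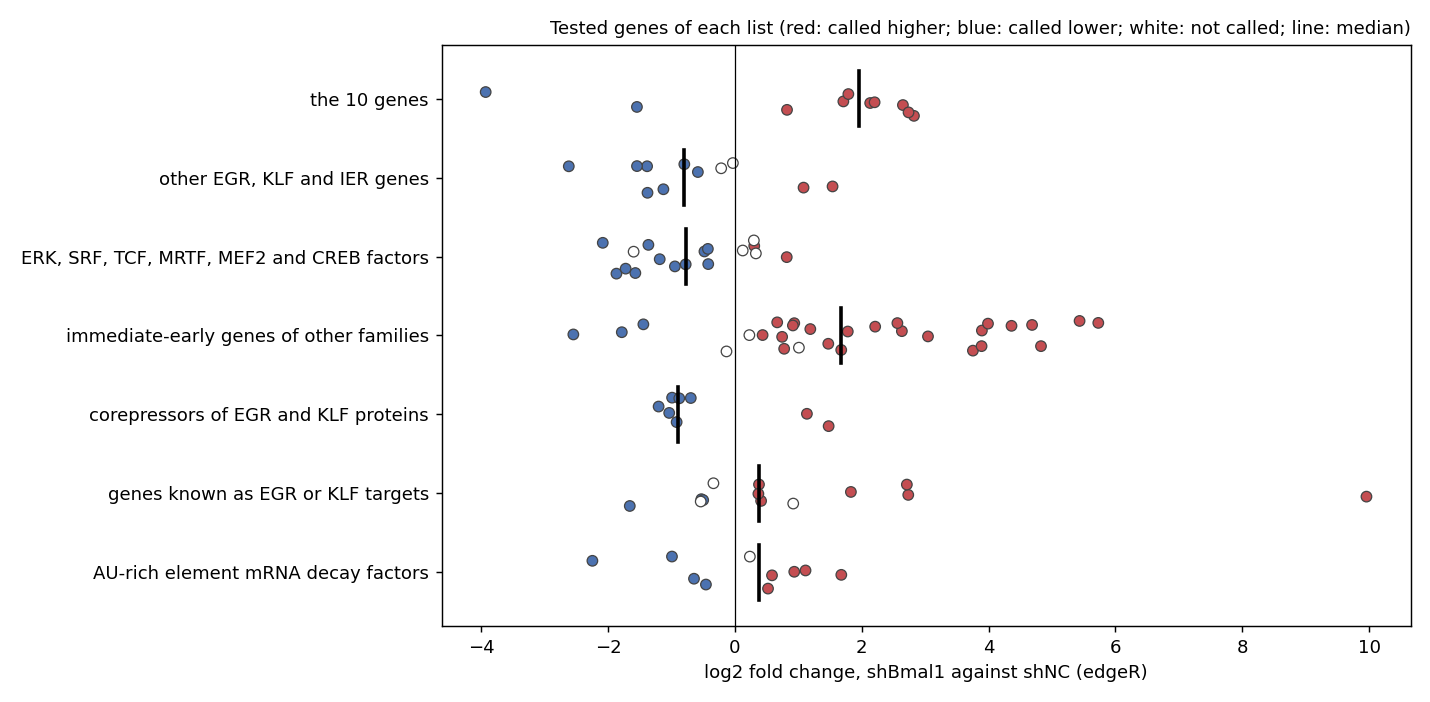
Log2 fold change of shBmal1 against shNC (horizontal axis) for each tested gene of the 10 genes and of the 6 related lists, with the median of each list as a black line. The 10 genes and the immediate-early genes of other families have medians of 1.96 and 1.68, and the other family genes, upstream factors and corepressors have medians of -0.80, -0.78 and -0.90.

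Markers of other cells in which these genes are prominent were low, apart from epithelial markers in some shBmal1 libraries. The 7 endothelial markers found summed to 9.58 to 11.8 CPM in shNC and 8.61 to 13.5 CPM in shBmal1, and the 9 immune markers to 32.7 to 44.1 and 29.5 to 38.3 CPM, with overlapping groups. Esam was the largest part of the endothelial sum in shNC (10.2 CPM) and Tek in shBmal1 (5.38 CPM), and Cd14 was the largest part of the immune sum in both groups (35.4 and 26.9 CPM). Cdh5 and Ptprc, which define endothelial and blood cells, averaged 0.0299 and 0.0633 CPM in shNC and 0.408 and 0.606 CPM in shBmal1. Of the 4 tested endothelial markers, 3 rose and 1 fell, and of the 3 tested immune markers 2 rose and 1 fell. Tek (0.482 to 5.38 CPM), Vwf (0.133 to 2.30 CPM) and Tie1 (0.0616 to 0.815 CPM) rose, and Esam (10.2 to 2.31 CPM) fell. Cd68 (0.407 to 2.89 CPM) and Lyz2 (0.575 to 2.75 CPM) rose, and Cd14 fell. The similar sums therefore do not mean that each marker was unchanged. Over all tested genes 71.3% passed. The 6 epithelial markers, of which 5 were tested and 2 rose, summed to 15.9 to 28.1 CPM in shNC. In shBmal1 libraries 1, 2 and 3 they summed to 156, 12.7 and 48.4 CPM. Library 1 thus stood apart, and library 3 also lay above every shNC library. Without shBmal1 library 1, and likewise without shBmal1 library 3, all 8 rises and both falls among the 10 genes were still called. Each of these runs kept the other raised library. The part of these markers in the 10 genes and in the other lists was not tested.

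Profiles across the 6 libraries were compared by the root mean square difference of log2(CPM + 0.5) after centring each gene on its shNC mean. The tested genes nearest to Egr1 were Prag1 (difference 0.0954), Snora9 (0.105) and Thoc1 (0.108). Nearest to Ier3 were Adcy4 (0.0401), Yipf5 (0.0409) and Sesn2 (0.0635), and nearest to Klf4 were Rps19l2 (0.0456), Etf1 (0.048) and Rpl31 (0.0523). Snora9 and Adcy4 had at most 1.82 CPM in either group on average, where the added 0.5 sets much of the profile. Their fitted log2 fold changes, 4.99 and 8.67, were unlike those of Egr1 (2.13) and Ier3 (2.20). The measure mainly matches genes with the same difference between the groups on the log2(CPM + 0.5) scale, since the groups are far apart.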

How the data were processed

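Per the file headers, the deposited table gives a raw count for every gene in each library and an FPKM that the authors computed by scaling for length and depth. Genes with no count are listed at an FPKM of 1e-04 and were taken as 0. The submitters' processing notes list StringTie 1.3.4d, HISAT2 2.0.4, cutadapt 1.9, DESeq2 and edgeR without saying what each did. No source used here gives the genome build, the counting program or the use of strand. Per the labels' protocols, polyadenylated RNA was selected with oligo-dT and read from both ends.

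Low genes were removed with filterByExpr (count of at least 10, total of at least 15), libraries were scaled by TMM, and the groups were compared with edgeR 4.0.16 (R 4.3.3, glmQLFit and glmQLFTest, no replicate block) over all 14342 tested genes, at a Benjamini-Hochberg adjusted p under 0.05. The procedure was run on simulated data in which most genes were unchanged. Such a run cannot check the scaling between libraries here, where 71.3% of tested genes passed. With 3 counts, a library reaches 0.0637 to 0.0712 CPM in shNC and 0.245 to 0.323 CPM in shBmal1. Libraries within a group differed beyond sampling noise (chi-square of 11 to 24.5 for each degree of freedom), and all were kept as separate replicates.

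The 10 genes and the gene lists were chosen with earlier results of these data known. Of 137 listed genes, 133 matched by symbol. Named in the text are the 10 genes, Arntl, every called EGR or KLF relative, the 4 called genes of lowest p in a list, all genes of a direction that holds 5 or fewer, and the 3 genes nearest in profile to Egr1, Ier3 and Klf4, leaving out placeholder symbols. Other names are marked in the text as picked with their values in view, and the same holds for Ier5l, Klf9, Gem, Dusp1, Trib1 and the cell type markers named. Alternatives were other scalings, DESeq2 1.42.0, limma 3.58.1 on TPM, other filters, thinning, a gene length offset, a replicate block and leaving out each library. Value columns not tied to a sample numbered 0.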

Additional observations from a re-analysis of the deposited data

How the results depend on the processing

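Each of the 17 alternatives gave the same 8 genes higher, and Klf2 lower, past the threshold, with log2 fold changes of 1.74 to 2.22 for Egr1, 0.44 to 0.88 for Ier2, 2.33 to 2.85 for Klf6 and -1.94 to -1.44 for Klf2. The count of the 10 genes called lower became 1 with a minimum count of 50, where Egr3 was not tested, and it was 1 to 2 when single libraries were left out. Egr3 ran from -8.00 to -0.79, the latter on the log2(TPM + 1) scale, which compresses low values. The replicate block changed no call among the 10 genes, its largest adjusted p being 0.0452 for Egr3 (edgeR), and it gave 9415 called genes against 10233 without it. Replicate numbers do not pair the libraries by any label, and deviations of same-numbered libraries correlated at -0.07 to 0.03 over genes, against -0.10 to 0.08 for other pairs. With TPM, 37.8% of all calls were higher against 50.5% in the main analysis, and the median over all genes moved to -0.35 with a pseudocount of 1 and -0.43 with 0.1, so values on that scale are relative to it. Map2k1 was at -0.066 with a pseudocount of 1 and -0.067 with 0.1, and was not called (adjusted p = 0.361 and 0.335, limma). Of 1477 values of 87 related genes under the alternatives, 1412 stayed called in the same direction or stayed uncalled, the latter whatever their direction. Another 39 lost the call, 24 gained it, and 2, those of Map2k1, changed sign and were no longer called. Groups stayed apart for 28 to 32 of the 36 pairs of genes, and 7 genes changed rank by group medians against 8 by means. Shallow shBmal1 libraries limit genes at a few CPM, Egr3 foremost.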
